A study of Mus musculus with 12 samples.

Results

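NF-κB is a family of dimeric transcription factors that carry inflammatory, immune and survival signals into the nucleus. In resting cells the dimers are held in the cytoplasm by IκB proteins. Kinases of the IKK complex mark IκB for degradation, and the dimers enter the nucleus. Among the genes they switch on are several of their own subunits and inhibitors. The induced inhibitors help to end the response. In kidney tubule cells the pathway is known from injury and inflammation, where it drives chemokine and adhesion genes. The transcripts of 10 mouse genes of this core are described here: the subunits Nfkb1, Nfkb2, Rela, Relb and Rel, the IκB genes Nfkbia, Nfkbib and Nfkbie, the atypical nuclear IκB gene Nfkbiz, and Tnfaip3, whose protein is a ubiquitin-editing enzyme that shuts off signalling upstream of IKK. They were taken by gene symbol and are 10 of the 55491 genes in the deposited tables. All 10 passed the filter on low counts and are among the 13513 genes tested.

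The cells were PT-22, a mouse kidney line labelled as proximal tubule. Every group carried the genotype Pax2-/-,Pax8fl/fl,Rosa-CreERT2, that is, by its label, no working Pax2 allele, Pax8 alleles that Cre can delete, and a tamoxifen-activated Cre at the Rosa locus; it is a single line, and the labels do not say whether it is a clone. Cells grown to confluence in DMEM with 3% fetal bovine serum were either untreated (control) or given 1 µM 4-hydroxytamoxifen for 2 days to remove PAX8, a kidney transcription factor. PolyA RNA was sequenced from 3 control libraries, lettered A, B and C, and from 3 libraries each at 2, 6 and 12 days following treatment. The labels do not say whether days count from the start or the end of the 2-day exposure, so it is not known whether the drug was still present at day 2. There was no vehicle control and no untreated library at the later days, so PAX8 loss, the drug, Cre activity and time in culture cannot be told apart. Whether A, B and C came from separate cultures is not stated, and a p-value here therefore reflects library-to-library spread that may be technical.

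Library totals ran from 4326667 to 11654959 counts. Pax8 counts were not lower after treatment (control mean 225 ± 3.46 CPM, day 2 mean 401 ± 51.0, day 6 mean 255 ± 10.9 and day 12 mean 241 ± 10.5; SD, n = 3), and Pax2, labelled as knocked out in every group, had 42.6 to 86.3 CPM over the 12 libraries. Counts per gene do not show whether single exons were lost, so they check neither deletion. Of 20 proximal tubule markers, 12 were tested and 6, among them Slc34a1, Slc5a2 and Slc5a12, were at 0 in every library. The summed proximal tubule markers lay at 1136 to 1271 TPM in control and at 471 to 594 TPM at day 12. TPM is a level per transcript length and library total. Against control at day 12, 10 of the 12 tested were lower and 1 was higher (Aqp1), with a median log2 change of -2.07. Lower genes were 83.3% of the tested and higher ones 8.33%, against 26.6% and 26.1% of all tested genes. Aqp1, a water channel gene, carried most of the later sum, with a mean of 108 TPM in control and 427 at day 12, while the cadherin gene Cdh16 had 701 and 26.4 TPM and the peptidase gene Anpep 54.4 and 3.56. Fibroblast and smooth muscle markers summed to 8.32 to 13.7 TPM in control, and then to 17.1 to 22.7 at day 2, 78.4 to 99.2 at day 6 and 299.9 to 365 at day 12; of the 12 in that list, 7 were tested, and at day 12 5 of them were higher (Pdgfrb, Dcn, Acta2, Myh11 and Des) and 1 lower. Higher genes were 71.4% of the tested and lower ones 14.3%, against 26.1% and 26.6% of all genes. Acta2 made up 90.5% of the day 12 sum. The fibroblast gene Dcn had a mean of 0.243 TPM in control and 18.1 at day 12 and Pdgfrb 0.0233 and 0.36, and Pdgfra, Col3a1 and Thy1 were at 0 in every library. Leukocyte markers summed to 29.1 to 36.7 TPM in the controls, 31.7 to 35.1 at day 2, 37.7 to 38.8 at day 6 and 39.5 to 41.5 at day 12; 9 of the 13 stayed under 1 TPM in every library, the pan-leukocyte gene Ptprc reached at most 0.71 TPM, and Itgam, Cd3e and Tyrobp were at 0. Of the 4 that were tested, Cd68 (mean 8.21 TPM in control and 14.4 at day 12), Lyz2 (0.697 and 2.16) and Cd14 (13.3 and 19.8) were higher at day 12 and Csf1r (10.4 and 4.06) was lower. Higher genes were 75% of these 4 and lower ones 25%, against 26.1% and 26.6% of all genes. Mitochondrial genes took 3.75% to 5.70% of counts. The nuclear RNA Malat1 took 0.373% to 0.474% at day 6 against 0.218% to 0.286% in the other groups. The part of these shifts in the results that follow was not tested, and in bulk RNA a change in the number of cells of a type and in RNA per cell cannot be told apart.

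Upstream sequences are shown because NF-κB is known to bind the promoters of several of its own inhibitors. RefSeq windows of 250 bases before the transcript start (GRCm38.p6) were at hand for 7 of the 10 genes. The source used held no window for Nfkb1, Relb and Nfkbiz. The 10-base NF-κB consensus motif, searched on both strands with overlapping matches merged, was in the windows of 5 of these 7 genes, namely Nfkb2, Rel, Nfkbia, Nfkbie and Tnfaip3, and not in those of Rela and Nfkbib. Of all 27025 genes with such windows 8.23% held it, and of all 32851 windows 7.25%. A match is a description of letters, not of binding. The last 130 bases before the start are given 5′ to 3′ on the gene's strand for 4 genes, with the motif in capitals.
Nfkbia: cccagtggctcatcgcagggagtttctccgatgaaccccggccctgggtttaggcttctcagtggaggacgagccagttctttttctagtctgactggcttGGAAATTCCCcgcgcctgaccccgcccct
Nfkbie: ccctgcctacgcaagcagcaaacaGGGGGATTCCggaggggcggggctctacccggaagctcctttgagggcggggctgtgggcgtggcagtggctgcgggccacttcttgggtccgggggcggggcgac
Tnfaip3: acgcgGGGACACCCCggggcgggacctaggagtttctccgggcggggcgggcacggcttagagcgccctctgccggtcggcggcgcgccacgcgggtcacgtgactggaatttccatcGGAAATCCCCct
Rel: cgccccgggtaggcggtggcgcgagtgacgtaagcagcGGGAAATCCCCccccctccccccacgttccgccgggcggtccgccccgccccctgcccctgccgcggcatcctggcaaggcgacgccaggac
The Nfkbia stretch is chr12:55492648-55492777 on the minus strand, with the motif 29 to 20 bases before the start. The Nfkbie stretch is chr17:45555570-45555699 on the plus strand, with the motif 106 to 97 bases before the start. That of Tnfaip3 is chr10:19015411-19015540 on the minus strand, inside the GENCODE gene span but outside its exons, with motifs 125 to 116 and 12 to 3 bases before the start. The Rel stretch is chr11:23770970-23771099 on the minus strand, with merged matches 92 to 82 bases before the start. The first of 3 Nfkb2 windows lies downstream of the GENCODE gene start, and its last 130 bases (chr19:46304607-46304736, plus strand) are exonic in Nfkb2 and AC114539.1 there, so it is upstream of a RefSeq start and not of the GENCODE gene. Its matches were GGGAATTCCCC, 39 to 29 bases before the start, and GGGGCTTTCC, 11 to 2 bases before it.

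By day 12, 8 of the 10 genes were higher than in control (Nfkb1, Nfkb2, Rela, Relb, Rel, Nfkbia, Nfkbie and Tnfaip3), Nfkbiz was lower, and Nfkbib did not pass the test, which was edgeR's quasi-likelihood test with a Benjamini-Hochberg adjusted p under 0.05 over all tested genes. Of all tested genes, 26.1% were higher and 26.6% lower at day 12. At day 6 the counts were 8 higher, 0 lower and 2 not passed, against 26.8% higher and 27.6% lower over all genes. At day 2 they were 4 higher (Nfkb1, Nfkbia, Nfkbie and Tnfaip3), 1 lower (Nfkbiz) and 5 not passed, against 10.3% and 10.9%. The median log2 change of the 10 genes was 0.24 at day 2, 0.45 at day 6 and 0.84 at day 12, while that of all tested genes was -0.0015, -0.0060 and -0.0028. In the test for any difference across the 4 groups, 9 of 10 passed, all but Nfkbib (adjusted p = 0.689), against 65.1% of all genes. The 10 genes were chosen with earlier results of these data known, so these shares are a description.

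**Figure D1:**
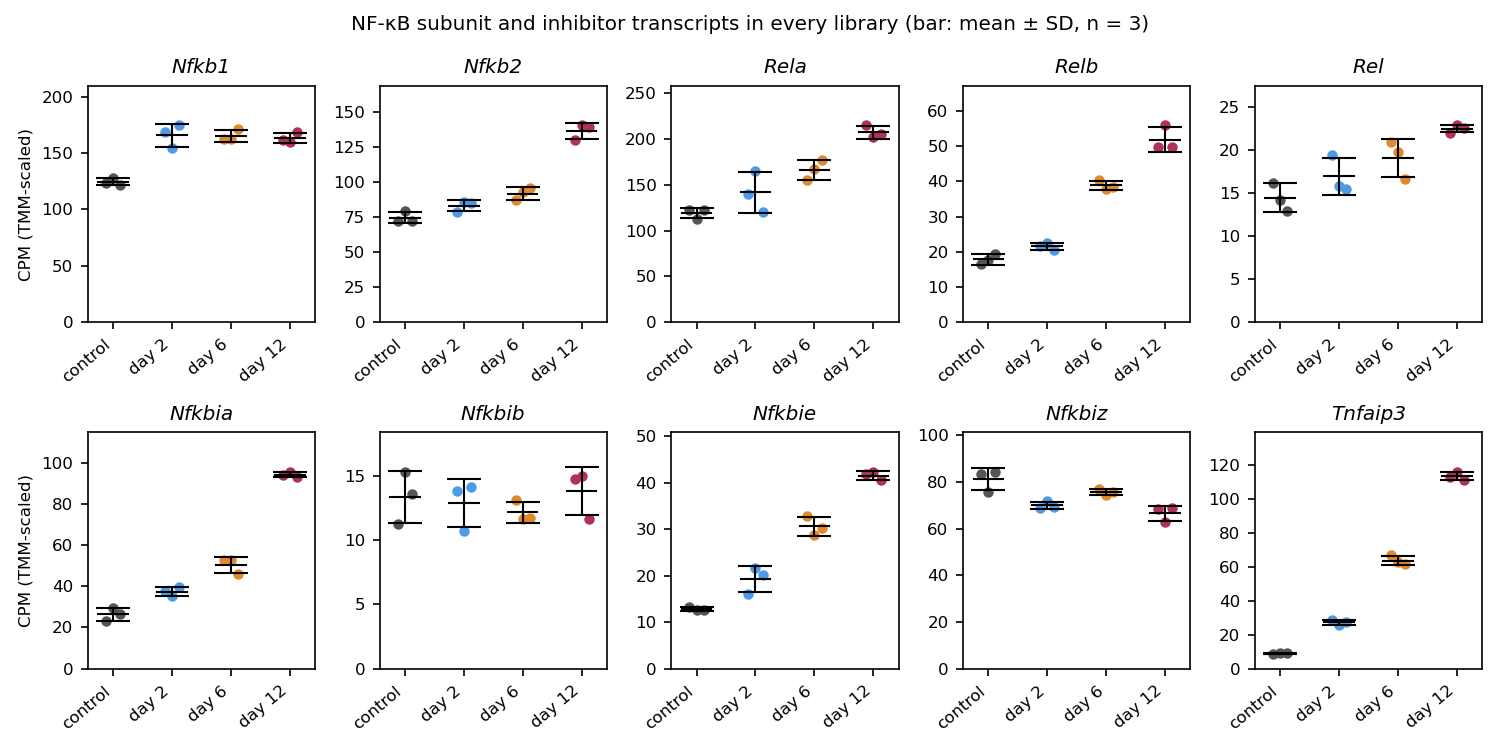
CPM (scaled by TMM; y axis from 0, one scale a gene) of the 10 genes in each library of the control, day 2, day 6 and day 12 groups; points are libraries and bars the mean ± SD, n = 3. Tnfaip3, Nfkbia, Nfkbie and Relb climb through the groups, Nfkb1 sits near 165 CPM from day 2 on, and Nfkbib stays between 10.7 and 15.3 CPM.

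Among the subunits, Rela and Nfkb1 make up the dimer best known from canonical signalling. Nfkb1 (chr3:135584655-135691547, minus strand; positions are GENCODE, GRCm38) encodes a precursor that is processed to the DNA-binding p50 subunit. Its CPM, the count per scaled library total, were 123.5, 128 and 122 in control A, B and C, 168, 154.5 and 174.5 at day 2, 162, 162 and 171 at day 6, and 162, 159.9 and 169 at day 12. All 9 treated libraries were above all 3 controls, and the treated groups overlapped each other. The rise was 1.34-fold at day 2 (95% interval 1.23 to 1.46, log2 0.42 ± 0.059 SE, adjusted p = 7.64e-07), 1.33-fold at day 6 and 1.31-fold at day 12. From day 2 to day 12 Nfkb1 changed by a log2 of -0.028 (interval -0.15 to 0.089, adjusted p = 0.728).

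Rela (chr19:5637483-5648130, plus strand) encodes the p65 subunit, which carries the activation domain. Its CPM were 122, 112 and 123 in the controls, 139.6, 165 and 119.9 in day 2 A, B and C, 155.5, 167 and 177 at day 6, and 215, 202 and 205 at day 12. The day 2 libraries were spread the widest and overlapped the controls through library C, while day 6 and day 12 lay above control. The change at day 2 did not pass (1.17-fold, adjusted p = 0.0581) and did pass without day 2 C (log2 0.35, adjusted p = 0.000372). Rela rose 1.39-fold by day 6 (interval 1.24 to 1.57, adjusted p = 2.36e-05) and 1.74-fold by day 12 (1.55 to 1.95, adjusted p = 1.03e-08).

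Nfkb2 (chr19:46304320-46312385, plus strand) encodes the precursor of p52, the DNA-binding subunit of the non-canonical pathway, and Relb (chr7:19606217-19629438, minus strand) encodes the partner of p52 in that pathway. Nfkb2 CPM were 72.5, 79.0 and 72.2 in the controls, 78.4, 85.9 and 85.0 at day 2, 86.8, 93.1 and 95.3 at day 6, and 130, 140.3 and 139.3 at day 12. The step from day 6 to day 12 was larger than the spread within either group, and day 2 overlapped control. Nfkb2 was 1.11-fold control at day 2 (adjusted p = 0.102), 1.23-fold at day 6 (adjusted p = 0.00024) and 1.84-fold at day 12 (interval 1.68 to 2.01, adjusted p = 6.76e-14). Its exons share 11.6% of their bases with the lncRNA gene AC114539.1 and 6.52% with Psd, both on the other strand. Whether counting used strand is not given in the sources at hand, and reads of overlapping exons may not be separable.

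Relb CPM were 16.4, 17.5 and 19.5 in the controls, 21.6, 22.4 and 20.6 at day 2, 40.4, 38.0 and 38.5 at day 6, and 49.9, 55.9 and 49.6 at day 12. The groups did not overlap at any step. Of the subunits Relb had the highest fold at day 6 and day 12: 1.19 at day 2 (adjusted p = 0.0848, not passed), 2.18 at day 6 (interval 1.91 to 2.49, adjusted p = 2.28e-12) and 2.89 at day 12 (2.55 to 3.29, adjusted p = 2.28e-16).

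Rel (chr11:23736847-23770970, minus strand) encodes c-Rel, a subunit best known from lymphocytes. It had the lowest mean TPM of the 10 in every group, though in control its libraries overlapped those of Tnfaip3. Its CPM lay at 12.9 to 16.2 in the controls, 15.5 to 19.4 at day 2, 16.6 to 20.9 at day 6 and 22.0 to 22.9 at day 12. Day 6 and day 12 were above every control library and day 2 was not. Rel was 1.33-fold control at day 6 (adjusted p = 0.00514) and 1.56-fold at day 12 (interval 1.31 to 1.85, adjusted p = 3.33e-05); at day 2 the log2 change was 0.23 (interval -0.034 to 0.49, adjusted p = 0.237).

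The 3 classical IκB genes differed in their course. Nfkbia (chr12:55489410-55492647, minus strand) encodes IκBα, the quickly degraded and resynthesised inhibitor of Rela dimers. Its CPM were 23.2, 29.4 and 26.4 in the controls, 37.8, 35.0 and 39.4 at day 2, 52.9, 52.5 and 45.9 at day 6, and 94.0, 95.5 and 92.9 at day 12. No group overlapped another. The rise was 1.44-fold at day 2 (interval 1.26 to 1.64, adjusted p = 4.21e-05), 1.93-fold at day 6 (1.70 to 2.18, adjusted p = 3.12e-11) and 3.59-fold at day 12 (3.19 to 4.03, adjusted p = 1.15e-19).

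Nfkbie (chr17:45555703-45563169, plus strand) encodes IκBε, an inhibitor that is also induced by NF-κB but more slowly than IκBα. Its CPM were 13.2, 12.6 and 12.6 in the controls, 16.2, 21.7 and 20.1 at day 2, 32.8, 28.7 and 30.4 at day 6, and 41.8, 42.4 and 40.5 at day 12. Here too no group overlapped another. Nfkbie was 1.495-fold control at day 2 (interval 1.27 to 1.77, adjusted p = 0.000275), 2.39-fold at day 6 (2.05 to 2.78, adjusted p = 4.44e-12) and 3.24-fold at day 12 (2.80 to 3.75, adjusted p = 6.12e-16).

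Nfkbib (chr7:28758251-28767512, minus strand) encodes IκBβ, which is not known as an early feedback target. Its CPM ranged from 11.3 to 15.3 in the controls, 10.7 to 14.2 at day 2, 11.7 to 13.1 at day 6 and 11.7 to 15.0 at day 12, and every group overlapped every other. The fold at day 12 was 1.03 with an interval of 0.85 to 1.26 (adjusted p = 0.792), so a rise above 1.26-fold lies outside it. Its total of 1354 counts over the 12 libraries was the lowest of the 10 genes, and its exons share 14.5% of their bases with Ccer2 and 1.94% with Sirt2 on the other strand.

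Nfkbiz (chr16:55811375-55838899, minus strand) encodes IκBζ, a nuclear cofactor that NF-κB and interleukin signals induce and that helps switch on secondary targets such as Lcn2. Lcn2 is named here for that known role and not by the rule used for the pathway lists. It was called higher than control at day 2, day 6 and day 12, and lower at day 6 than at day 2. In its list of 18 tested target genes, 9 were higher at day 12 (50%, against 26.1% of all genes). There 3 were lower (Vcam1, Tnfaip2 and Plau, 16.7% against 26.6%). A link between Nfkbiz and Lcn2 was not tested. Nfkbiz CPM were 83.5, 75.7 and 84.3 in the controls, 69.0, 71.7 and 69.1 at day 2, 77.1, 74.6 and 75.9 at day 6, and 68.4, 63.0 and 68.7 at day 12. Day 2 and day 12 lay below every control library, and day 6 overlapped control. Nfkbiz was lower at day 2 (0.858-fold, interval 0.778 to 0.945, adjusted p = 0.0177) and at day 12 (0.82-fold, 0.746 to 0.902, adjusted p = 0.00054). The day 2 call was lost without control A or C or day 2 A or C (adjusted p = 0.0526 to 0.093) and with the 6 compared libraries alone (0.0552), and both calls were lost in limma on TPM (adjusted p = 0.104 at day 2; 0.0574 and 0.0578 at day 12).

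Tnfaip3 (chr10:19000910-19015657, minus strand), a well-known NF-κB target whose enzyme trims and replaces ubiquitin chains on signalling adaptors, rose the most of the 10 genes. Its CPM were 8.51, 9.12 and 9.08 in the controls, 28.7, 25.7 and 27.8 at day 2, 66.8, 62.7 and 61.6 at day 6, and 113, 116 and 111 at day 12. The 4 groups were far apart beside the spread within any of them. The rise was 3.10-fold at day 2 (interval 2.66 to 3.60, log2 1.63 ± 0.107 SE, adjusted p = 2.08e-14), 7.16-fold at day 6 (6.27 to 8.18, log2 2.84 ± 0.094 SE, adjusted p = 1.77e-23) and 12.7-fold at day 12 (11.2 to 14.4, log2 3.67 ± 0.089 SE, adjusted p = 2.21e-27).

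**Figure D2:**
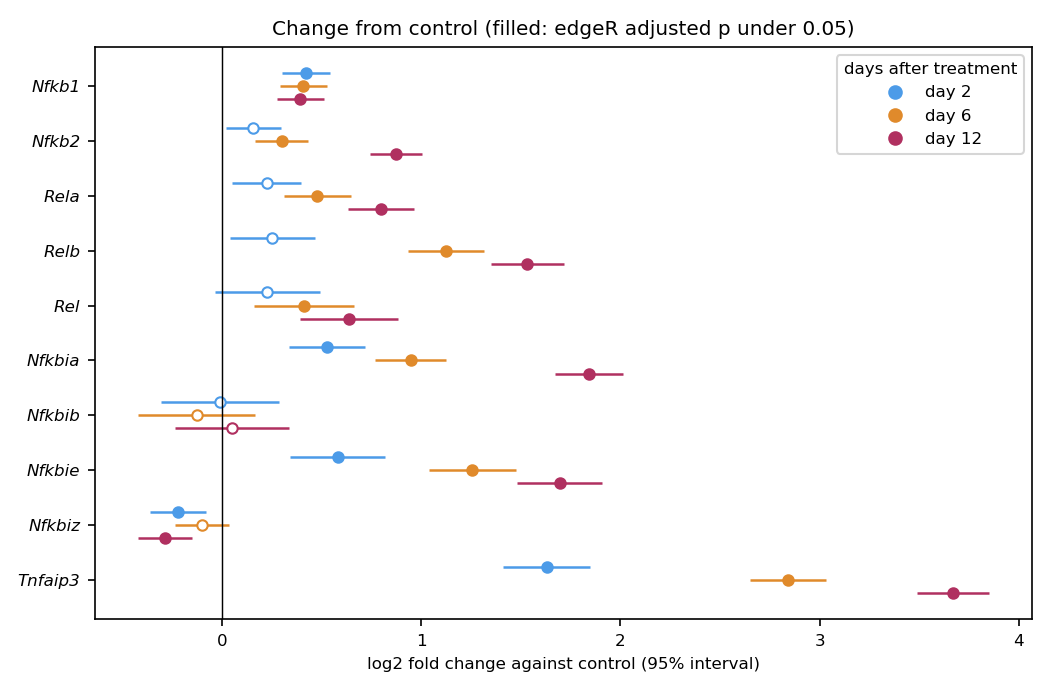
Log2 fold change against control (x axis, 95% interval) of each gene at day 2, day 6 and day 12; filled points have an edgeR adjusted p under 0.05. Tnfaip3 reaches 1.63, 2.84 and 3.67, Nfkb1 stays at 0.42, 0.41 and 0.39, the interval of Nfkbib spans 0 at each day, and Nfkbiz lies at -0.22, -0.10 and -0.29.

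The genes reached their day 12 level at different times. Nfkb1 had 107% of its day 12 log2 change at day 2, Tnfaip3 44.5%, Rel 35.7%, Nfkbie 34.2%, Nfkbia 28.5%, Rela 28.2%, Nfkb2 17.9% and Relb 16.5%. At day 6 the share was 77.4% for Tnfaip3, 74.1% for Nfkbie, 73.3% for Relb, 51.4% for Nfkbia and 34.2% for Nfkb2. These are ratios of estimates without an interval of their own, and all 3 changes share the control libraries. Between treated groups, 5 genes rose from day 2 to day 6 (Rela, Relb, Nfkbia, Nfkbie and Tnfaip3) and 0 fell, where 22.6% of all genes rose and 22.3% fell. From day 6 to day 12, 6 rose (Nfkb2, Rela, Relb, Nfkbia, Nfkbie and Tnfaip3) and Nfkbiz fell, where 11.0% of all genes rose and 11.0% fell. From day 2 to day 12, 7 rose and 0 fell, against 22.3% and 21.6%. The median log2 change of the 10 genes was 0.22, 0.36 and 0.64 in these steps, beside -0.0017, 0.0078 and 0.0035 over all genes. The counts of 0 stayed 0 at an unadjusted p under 0.05, in DESeq2 and in limma on TPM, here and for the fall at day 6 against control. On TPM the all-gene split was less even: in limma on log2(TPM + 1) 61.9% of calls were higher at day 6 against control (49.2% on counts), 70.9% at day 6 against day 2 (50.4%), 63.0% at day 12 against day 2 (50.7%) and 36.0% at day 12 against day 6 (49.9%). The all-gene median moved to 0.12 at day 6 against day 2 on that scale.

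From day 2 to day 6 Relb had the second highest step, at 1.83-fold (adjusted p = 2.03e-09), after Tnfaip3 at 2.31-fold (adjusted p = 1.27e-14). From day 6 to day 12 the step of Nfkbia was 1.86-fold (adjusted p = 5.84e-11), that of Tnfaip3 1.78-fold (adjusted p = 1.57e-11) and that of Nfkb2 1.49-fold (adjusted p = 1.24e-08). Some of the smaller steps depended on single libraries or on the unit. The step of Rela from day 2 to day 6 (adjusted p = 0.0133) was lost without day 2 C (0.108) or day 6 C (0.068), with the 6 compared libraries alone (0.053) and in limma on TPM (0.217 and 0.216). The day 6 to day 12 fall of Nfkbiz (adjusted p = 0.045) was lost in 12 of 21 alternatives, among them the fits without control C, without each day 6 library and without each day 12 library (adjusted p = 0.0524 to 0.176). In limma on TPM the day 6 to day 12 steps of Rela and Relb did not pass. The rise of Rel from day 2 to day 12 (adjusted p = 0.00595) was lost without day 2 C (0.0629) and in limma on log2(TPM + 0.1) (0.0543).

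Levels between genes are compared in TPM. In control the order was Rela (92.8 ± 8.83 TPM, mean ± SD, n = 3), Nfkb1 (62.8 ± 4.49), Nfkb2 (38.8 ± 0.80), Nfkbia (37.3 ± 2.99), Nfkbiz (36.0 ± 3.56), Nfkbib (21.9 ± 3.66), Relb (16.1 ± 1.74), Nfkbie (8.57 ± 0.553), Tnfaip3 (3.43 ± 0.399) and Rel (2.96 ± 0.321). The libraries of Nfkb2, Nfkbia and Nfkbiz overlapped, as did those of Tnfaip3 and Rel, so these neighbours cannot be ordered. At day 12 the order was Rela (166 ± 14.2 TPM), Nfkbia (131 ± 2.96), Nfkb1 (83.9 ± 3.86), Nfkb2 (75.1 ± 4.32), Tnfaip3 (48.7 ± 2.64), Relb (44.0 ± 3.28), Nfkbiz (30.9 ± 1.38), Nfkbie (28.8 ± 1.09), Nfkbib (21.4 ± 2.78) and Rel (4.79 ± 0.160). Here Tnfaip3 overlapped Relb, and Nfkbiz overlapped Nfkbie.

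The summed TPM of the 5 subunits was 213.5 ± 10.4 in the controls, 263 ± 20.8 at day 2, 314 ± 16.3 at day 6 and 374 ± 5.30 at day 12. Rela kept a share of 43.1% to 44.5% of that sum on average in every group, while the share of Nfkb1 was 29.4 ± 1.148% in control and 22.5 ± 1.26% at day 12 and that of Relb 7.58 ± 1.13% and 11.8 ± 0.99%. The 3 classical IκB genes together had 67.8 ± 3.12 TPM in the controls, 84.0 ± 9.51 at day 2, 110.0 ± 4.84 at day 6 and 182 ± 5.02 at day 12. The ratio of IκB to subunit TPM was 0.307, 0.345 and 0.302 in control A, B and C, 0.304, 0.285 and 0.371 at day 2, 0.383, 0.355 and 0.316 at day 6, and 0.488, 0.494 and 0.475 at day 12. Day 12 lay above all other libraries, and day 2 and day 6 overlapped control. Nfkbia was 55.0 ± 3.80% of the IκB sum in control and 72.4 ± 1.51% at day 12. TPM divides by a transcript length estimated in each library: control A had the lowest Nfkbia CPM of all libraries (23.2) and, among the controls, the highest Nfkbia TPM (40.6).

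**Figure D3:**
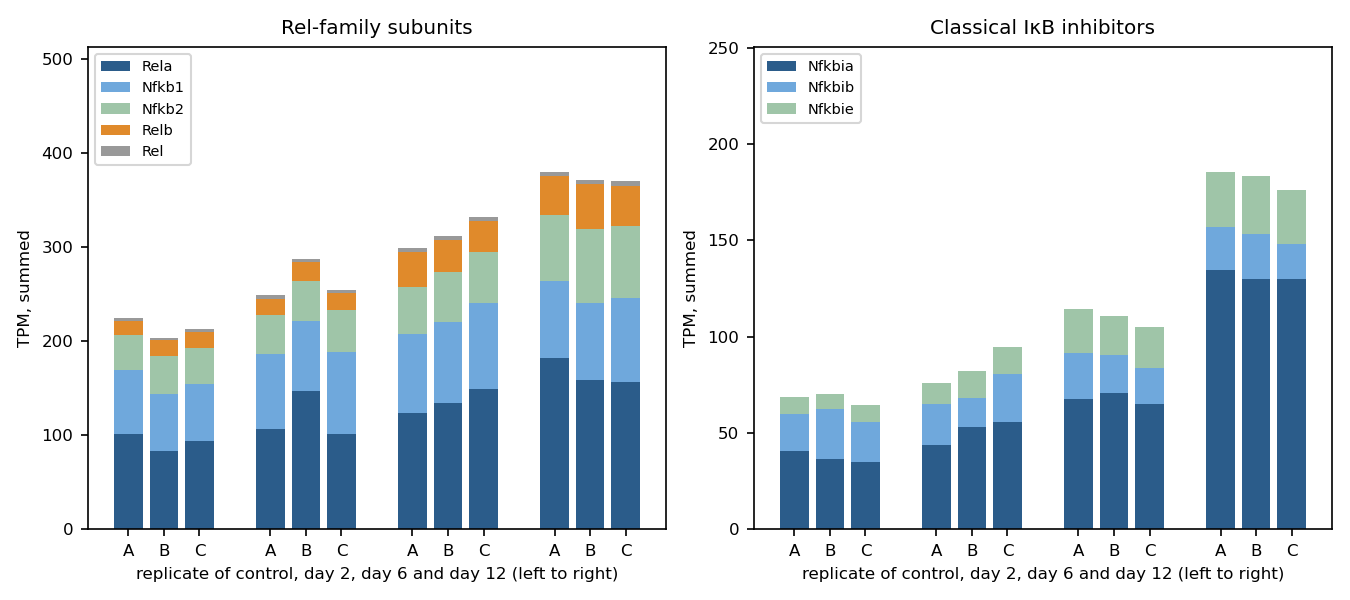
TPM of the 5 subunits (left) and of the 3 classical IκB genes (right), stacked for each library of control, day 2, day 6 and day 12 (y axes from 0, different scales). The subunit sum goes from 213.5 to 374 TPM and the IκB sum from 67.8 to 182 TPM between the control and day 12 means, with Nfkbia the segment that grows most.

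Around this core, 107 other pathway genes were listed by role, of which 92 were tested. At day 2, 26 were higher (28.3%, against 10.3% of all genes), 9 lower (9.78% against 10.9%) and 57 not passed. At day 6, 45 were higher (48.9% against 26.8%), 9 lower (9.78% against 27.6%) and 38 not passed, and at day 12, 51 were higher (55.4% against 26.1%), 10 lower (10.9% against 26.6%) and 31 not passed. Their median log2 change was 0.095, 0.22 and 0.30 at these days, beside the all-gene medians near 0 given above. More of the listed genes were higher than lower at each day, where the shares over all genes were nearly equal on counts. The lists were chosen with earlier results of these data known, so these shares describe them and give no independent support.

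**Figure D4:**
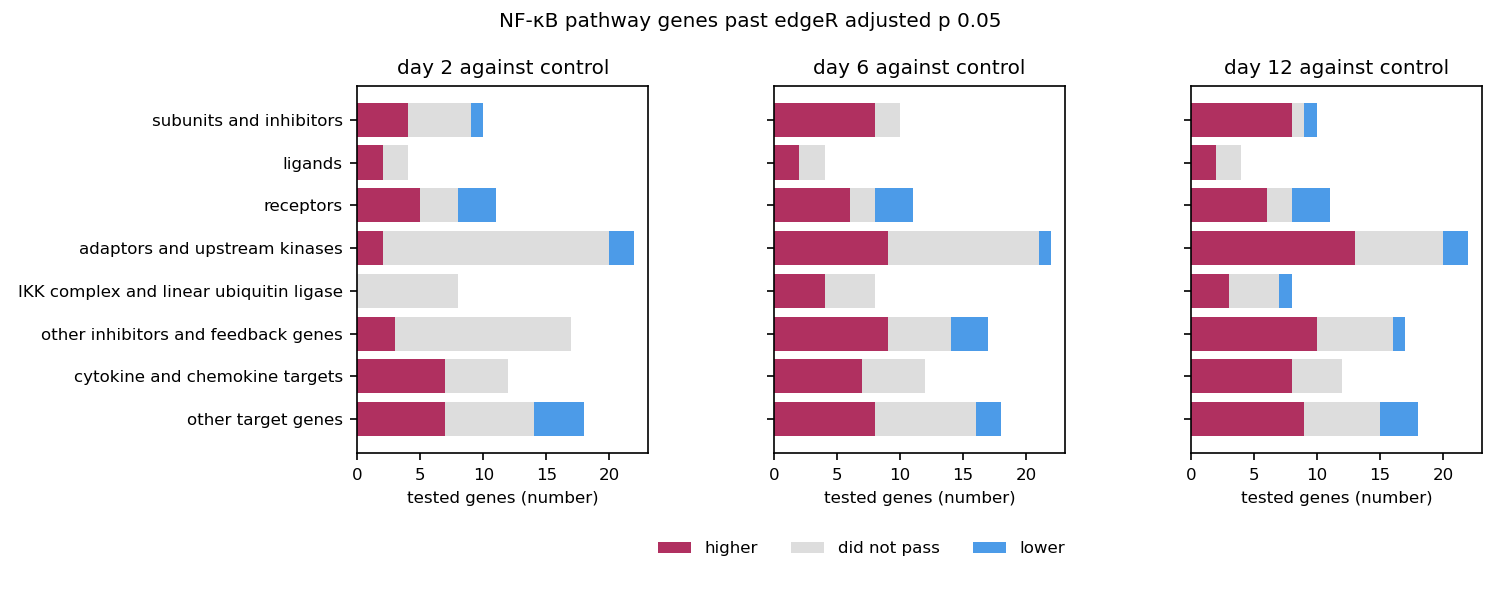
Number of tested genes (x axis) that were higher, lower or did not pass at an edgeR adjusted p of 0.05 in the subunit and inhibitor set and in 7 lists of other pathway genes, at day 2, day 6 and day 12 against control. The adaptor list goes from 2 higher genes at day 2 to 13 of 22 at day 12, and the IKK list has 0 calls at day 2.

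Of the ligands that start the pathway, 4 of 11 were tested. Il33, an alarmin of epithelial cells, and Il18, an inflammasome cytokine, were higher at each day and the other two did not pass; 2 of 4 is 50%, beside 10.3% to 26.8% of all genes. Il33 lay at 2.71 to 3.56 CPM in control and 7.46 to 9.64 at day 12 (2.80-fold, adjusted p = 2.64e-07). Il18 was near the detection limit, at 0.209 to 0.460 CPM in control and 1.13 to 1.98 at day 12 (adjusted p = 0.000594). The third gene named by the rule, Tnfsf12, which encodes the cytokine TWEAK, lay at 20.4 to 22.6 CPM in control and 15.6 to 25.3 at day 12 (adjusted p = 0.581).

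Of 11 tested receptors, 6 were higher (54.5%, against 26.1% of all genes) and 3 lower (27.3%, near the 26.6% of all genes) at day 12. Tnfrsf1b, a TNF receptor, had 14.3 to 16.3 CPM in control and 38.3 to 42.4 at day 12 (2.68-fold, adjusted p = 1.54e-14). Tlr2, a sensor of bacterial lipoproteins, had 16.2 to 20.2 CPM in control and 40.8 to 45.7 at day 12 (2.42-fold, adjusted p = 6.74e-13). Il1rl1, the receptor of Il33, moved the other way, from 4.83 to 4.95 CPM in control to 0.341 to 1.17 at day 2 and 0 to 0.349 at day 12 (adjusted p = 1.09e-09), while its ligand rose.

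Adaptors and upstream kinases link receptors to IKK. Of 22 tested, 2 were higher and 2 lower at day 2, 9 and 1 at day 6, and 13 and 2 at day 12. These 13 were 59.1% of the list, beside 26.1% of all genes, and the 2 higher at day 2 were 9.09%, near the 10.3% of all genes. The 9 higher at day 6 were 40.9%, beside 26.8%. Lower genes made up 9.09%, 4.55% and 9.09% of the list at the 3 days, beside 10.9%, 27.6% and 26.6% of all genes. Irak2, a kinase of Toll-like and IL-1 receptor signalling, went from 11.1 to 12.8 CPM in control to 20.6 to 22.3 at day 2, 47.3 to 50.4 at day 6 and 36.9 to 39.8 at day 12, and it was lower at day 12 than at day 6. Birc3, a ubiquitin ligase of TNF receptor signalling, had 6.44 to 7.32 CPM in control and 14.0 to 16.6 at day 12 (2.22-fold, adjusted p = 2.04e-08). Card10, a scaffold of the CARD-BCL10-MALT1 complex, first rose, from 147 to 166 CPM in control to 211 to 236.5 at day 2 (adjusted p = 9.26e-08), and was then lower than control at day 12, at 119 to 123 CPM (adjusted p = 2.09e-06).

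The IKK complex phosphorylates IκB, and the linear ubiquitin ligase helps to recruit and activate it. Of 8 genes 0 were called at day 2 by edgeR, by DESeq2 or by limma on TPM (1 had an unadjusted edgeR p under 0.05), 4 were higher at day 6, and 3 were higher and 1 lower at day 12. Higher genes made up 50% of the list at day 6 and 37.5% at day 12, beside 26.8% and 26.1% of all genes. The 1 lower at day 12 was 12.5%, beside 26.6%. At day 2, 10.3% of all genes were higher and 10.9% lower. Ikbkg, the regulatory subunit of IKK, had 53.5 to 58.6 CPM in control and 65.0 to 67.6 at day 12 (1.19-fold, adjusted p = 0.00355). Ikbke, an IKK-related kinase, was 1.34-fold control at day 12 (adjusted p = 0.0155), and Sharpin, part of the linear ubiquitin ligase, was 0.878-fold (adjusted p = 0.0443).

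Among other inhibitors and feedback genes, 10 of 17 were higher (58.8%, against 26.1% of all genes) and 1 lower (5.88% against 26.6%) at day 12. Tnip1, which encodes a partner of the Tnfaip3 protein, had 61.3 to 69.2 CPM in the controls, 83.9 to 90.9 at day 2, 143 to 153 at day 6 and 176 to 199 at day 12 (2.81-fold at day 12, adjusted p = 4.15e-20). Cyld, a deubiquitinase that restrains the pathway, had 87.2 to 92.7 CPM in control and 153 to 160.3 at day 12 (1.72-fold, adjusted p = 1.89e-13). Ikbip had 40.3 to 49.9 CPM in control and 76.6 to 79.0 at day 12 (1.69-fold, adjusted p = 6.93e-10).

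Of 12 tested cytokine and chemokine targets, 7 were higher at day 2 (58.3%, against 10.3% of all genes), 7 at day 6 (58.3% against 26.8%) and 8 at day 12 (66.7% against 26.1%), with 0 lower at any of these days by edgeR, also at an unadjusted p under 0.05, by DESeq2 and by limma on TPM. Their courses differed. Cxcl16, a transmembrane chemokine, had 17.4 to 18.7 CPM in the controls, 18.6 to 26.4 at day 2 (not passed) and 67.5 to 75.5 at day 12 (3.94-fold, adjusted p = 2.91e-18). Cx3cl1, fractalkine, was 1.90-fold control at day 2, with 29.7 to 38.8 CPM against 15.0 to 18.4, and 2.91-fold at day 12 (adjusted p = 5.07e-15). Csf1, the macrophage growth factor, had 163 to 169 CPM in the controls, 253 to 288.5 at day 2 and 247 to 266 at day 6. Day 2 and day 6 overlapped and did not differ by the test (adjusted p = 0.287). At day 12 Csf1 stood at 217 to 221 CPM (1.31-fold control, adjusted p = 4.54e-07).

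Of 18 other target genes, 9 were higher (50%, against 26.1% of all genes) and 3 lower (16.7% against 26.6%) at day 12. The acute-phase gene Saa3 had 0.939 to 1.03 CPM in the controls, 3.74 to 7.16 at day 2, 37.4 to 53.2 at day 6 and 74.0 to 78.8 at day 12 (adjusted p = 5.06e-21). The complement gene C3 was first lower, at 409.9 to 444 CPM at day 2 against 499 to 591 in control (0.791-fold, adjusted p = 3.94e-05), and then higher, at 1030 to 1122 CPM at day 12 (1.99-fold, adjusted p = 2.29e-16). Bcl2l1, a survival gene, had 119.9 to 134 CPM in control and 182.5 to 183 at day 12 (1.46-fold, adjusted p = 1.22e-09). The members of these lists that moved include genes that fell at day 2 and rose later, and the lists were not tested as sets.

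**Figure D5:**
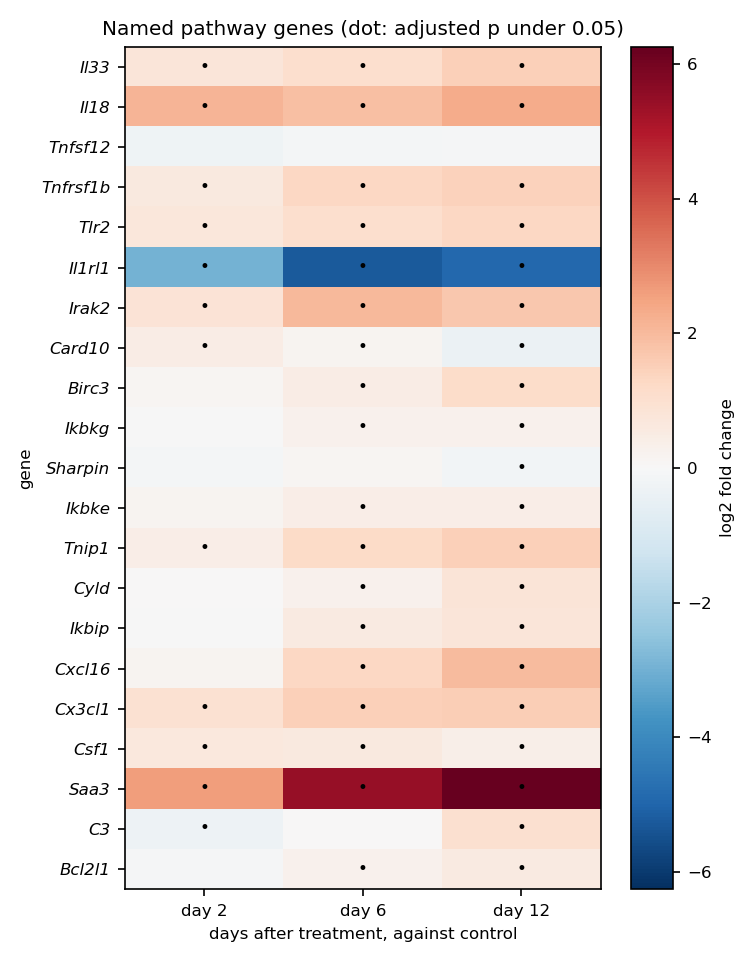
Log2 fold change against control (colour scale) at day 2, day 6 and day 12 of 21 pathway genes, 3 from each list; a dot marks an edgeR adjusted p under 0.05. Saa3 has the highest value, 6.26 at day 12, Il1rl1 the lowest, and Card10 and C3 change sign between day 2 and day 12.

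For the 4 members that differed at least 2-fold between groups, the genes whose log2 CPM followed them most closely over the 12 libraries were found. The search covered the tested genes except predicted, Rik and mitochondrial genes and those without an Ensembl ID. For Tnfaip3 these were Col14a1 (Pearson r = 0.998), Spon2 (0.998) and Ifi204 (0.996). Col14a1, a collagen gene, had a mean of 0.931 CPM in control and 60.2 at day 12, and Ifi204, an interferon-inducible gene, 4.38 and 79.4 CPM. For Relb they were Prickle1 (0.994), Mfge8 (0.993) and Hdac4 (0.992), for Nfkbia Mcam (0.991), Hif1a (0.989) and Ifi203 (0.987), and for Nfkbie Msrb3 (0.992), Fbln1 (0.991) and Tulp4 (0.99). Hif1a, the hypoxia-response factor, had a mean of 173.5 CPM in the controls, 222.5 at day 2, 318 at day 6 and 554 at day 12. These values describe genes that go up over the same 4 groups of 12 libraries, which the points share, and carry no test.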

How the data were processed

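PolyA RNA-seq was measured in 12 libraries (3 in each of 4 groups). STAR 2.7.8a and RSEM 1.3.3, besides cutadapt 2.3 and FastQC 0.11.8, are named with the build GRCm38 in the submitters' processing notes; the annotation release, strand use and filters are not given in the sources used here. The expected counts that the authors deposited are whole numbers without normalization and were used as they stand. A second deposited table holds TPM values, which the authors had computed themselves. The number of sample columns left unused was 0. Counts were tested with edgeR 4.0.16 in R 4.3.3 (filterByExpr, TMM scaling, robust quasi-likelihood fit over all 12 libraries, 8 residual degrees of freedom, contrasts between groups and an F-test, Benjamini-Hochberg adjustment over 13513 genes). CPM are TMM-scaled, standard errors come from the log2 fold change and its F statistic, and intervals are 95%. On simulated counts for day 12 against control, edgeR recovered 91% of genes changed 1.5-fold and 100% of those changed 2-fold (13234 genes in that step). It also called 10 unchanged genes. For day 2 the recovery at 1.5-fold was 88.1%. The simulation was a single run that gave every gene the same dispersion and changed only a small set of genes, so recovery in the real data may differ. The changed genes were drawn from those above a minimum mean CPM, so recovery of genes with few counts was not measured.

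All 10 members are described. The members and lists were chosen with earlier results of these data known. From each pathway list the 3 tested genes with the smallest F-test p and a mean of at least 1 CPM are named, and for members differing at least 2-fold between groups the 3 tested genes with the highest correlation of log2 CPM (prior count 2). Predicted, Rik and mitochondrial genes and those without an Ensembl ID were left out of the correlation search. Alternatives were upper-quartile scaling, DESeq2 1.42.0, another filter and none, limma 3.58.1 on log2(TPM + 1) and log2(TPM + 0.1), fits to the compared libraries, a replicate term, and each library left out. Replicates of a group differed beyond sampling noise (chi-square per degree of freedom 2.12 to 7.56), so no library was a copy of another. Gene positions and exon overlaps are from GENCODE M21, promoter windows from RefSeq (GRCm38.p6).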

Additional observations from a re-analysis of the deposited data

Results flagged for a closer look

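For 7 of the 10 genes the change from control at day 12 differed from that at day 2 in the test of that difference itself, which is the contrast of day 12 against day 2 in edgeR since both share the controls. The difference, day 12 minus day 2 on the log2 scale, was 2.04 for Tnfaip3 (adjusted p = 1.43e-21), 1.32 for Nfkbia (adjusted p = 1.5e-15), 1.28 for Relb (adjusted p = 6.64e-14) and 1.12 for Nfkbie (adjusted p = 2.8e-11). It was 0.72 for Nfkb2 (adjusted p = 2.59e-11), 0.57 for Rela (adjusted p = 3.24e-06) and 0.41 for Rel (adjusted p = 0.00595). The call of Rel was lost without day 2 C (0.0629) and in limma on log2(TPM + 0.1) (0.0543). In that contrast 22.3% of all tested genes were higher. In each of these 7 genes the 3 day 12 libraries were above the 3 day 2 libraries. This adds no support, since the genes were picked by that contrast, and the share of all genes so separated was not computed.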

How the results depend on the processing

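Over 1460 alternative values of 70 member results, 0 changed direction with a call, 32 lost and 6 gained a call, and 61 results kept their side of the threshold throughout. In limma on log2(TPM + 1) and on log2(TPM + 0.1), 1744 and 1725 genes passed at day 2 against control (2860 in edgeR on counts), 1379 and 1300 at day 12 against day 6 (2971), and 4 and 4 members at day 12 against day 6 (7); the cause was not tested. The day 2 change of Rela passed with upper-quartile scaling (adjusted p = 0.0383), DESeq2 (0.0349) and no filter (0.00889), and the day 6 against day 2 change of Nfkb2 passed on TPM (0.00931 and 0.00933). Leaving out single libraries gave 2339 to 3083 genes at day 2, 6684 to 7586 at day 6 and 6492 to 7443 at day 12 against control. Over all fits to counts but the one without a filter, the median log2 change of all genes lay between -0.016 and 0.025. These include the main fit, other scalings and the fits with a library left out. Same-lettered libraries did not deviate together (18 pairs, mean r = 0.0020, 1 over 0.1), and 3 of 12 libraries correlated best with their own letter. No pairing by letter was thus seen, which cannot show whether the letters mark matched cultures or batches. With a replicate block, 2932 genes passed at day 2, 7370 at day 6 and 7164 at day 12, and no member call changed. Depth limits Nfkbib and Rel most, the members with the fewest counts.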

Other observations

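Of the 107 pathway genes, 15 fell below the filter on low counts. They include the genes of the classical inducers and of a main secondary cytokine, listed here after their values were seen: over the 12 libraries Tnf had 20 counts in total (at most 5 in a library), Il1a had 8, Lta had 8, Il6 had 25 and Il1b, Tnfsf11 and Cd40lg had 0. No gene of the 15 exceeded 7 counts in any library, and 4 of them had 0 counts in all. At this depth a count of 0 to 7 allows no comparison between groups.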
